A study of Mus musculus with 16 samples.

Results

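The Obox genes, short for oocyte-specific homeobox genes, were described in mouse 2-cell embryos. The members are Obox1, Obox2, Obox3, Obox5 and Obox6, found by matching the Ensembl identifiers of the gene tables, version dropped, to these GENCODE symbols. All 5 were found among 49585 listed identifiers. The labels give 16 libraries in 3 groups. In 6 knockdown libraries, zygotes had been microinjected with double-stranded RNA against Suv39h2, the gene of a histone H3 lysine 9 methyltransferase. In 6 LacZ control libraries, zygotes had received double-stranded RNA of the bacterial gene LacZ, which mice lack. The 4 non-injected libraries came from embryos that were not injected. All embryos were hybrids of DBA fathers and F1 mothers from C57BL/6J and CBA/H, cultured in KSOM medium and taken at the 2-cell stage. The design text speaks of pools of 5 embryos, whereas the extraction label names a single embryo. The treatment label names Suv39h1 mRNA, which the label of what was injected gives for no group. The study's question is what loss of Suv39h2 does to the transcripts of the 2-cell embryo.

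Obox proteins are homeodomain transcription factors of the paired-like kind, encoded in a tandem gene cluster that expanded in rodents. Homeodomains bind short AT-rich DNA elements. In mouse, Obox transcripts are known from growing oocytes and early embryos. Obox1, Obox2, Obox5 and Obox7 are known mostly as maternal mRNAs, which the oocyte stores and the embryo degrades, whereas Obox3 is transcribed from the embryo's own genome when that genome becomes active. Members of the family are known to act with overlap in starting transcription of the embryonic genome. Obox6 is known as a factor that can aid reprogramming of somatic cells to pluripotency.

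All levels, log2 fold changes, standard errors and p-values of genes below are those of the authors' deposited tables, 1 for each pair of groups. A level is the mean normalized count over all libraries, divided by exon length in kb where genes are compared with each other. The deposited tables hold 0 columns for single libraries, so no value per library, no spread over libraries and no level per group can be given, and the depth is unknown. Fold changes were shrunken according to the names of the tables. A gene was called changed at a deposited adjusted p under 0.05 in the authors' DESeq2 Wald test. Shares at an unadjusted p are over all 33028 genes with a p-value. Many of these have low counts, so such shares differ from those among abundant genes. Nothing in the labels says that libraries of 1 group came from separate injections, so the p-values measure the spread between these libraries, which may be technical. Because these are bulk libraries, fewer embryo cells in a pool and less RNA per cell cannot be told apart.

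In the authors' deposited tables the targeted Suv39h2 was lower in knockdown than in LacZ control libraries by a log2 fold change of -1.95 ± 0.28 (SE, adjusted p = 4.72e-08 in DESeq2). Against non-injected libraries it was -1.79 ± 0.29 (adjusted p = 2.21e-06 in DESeq2). All 5 markers of the 2-cell stage had mean counts between 352 and 2987, among them Zscan4d, a gene switched on at the 2-cell stage, and all 5 oocyte-inherited markers lay between 205 and 8077. Of 18 cumulus and granulosa markers, the cells that surround the oocyte, the deposited counts summed to 543, of which 407 were Amhr2. After Amhr2 the highest were Kitl at 49.8, Tnfaip6 at 36.5, Cyp19a1 at 16.1, Slc38a3 at 15.2 and Star at 9.72. All others lay at 2.86 or lower. Among these, the defining Foxl2, Amh and Fshr lay at 0.158, 0.667 and 0.0454, and Inhba is listed at 0. Only 6 of the 18 had an adjusted p in each knockdown comparison, and 15 had one for LacZ control over non-injected. None of these was called in the authors' DESeq2 tables. Of the 17 with a p-value, 0 had an unadjusted DESeq2 p under 0.05 for knockdown over LacZ control, where 8.13% of all genes did. There were 3 for knockdown over non-injected (14.8% of all genes) and 1 for LacZ control over non-injected (6.55%). The 7 sperm transcripts summed to 13.6, with Smcp listed at 0. None of them had an adjusted p in the knockdown comparisons, so none could be called there. The 6 with an adjusted p for LacZ control over non-injected were not called. None had an unadjusted DESeq2 p under 0.05 in any comparison.

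Since the copies resemble each other, the same stretch of the homeobox is shown for all 7 protein-coding Obox genes of the annotation, the 5 members and Obox7 and Obox8. It holds the coding bases of homeodomain positions 16 to 35, from GENCODE vM21 transcripts on GRCm38, printed 5′ to 3′ on the gene's strand. Capitals mark bases that differ from Obox1 in the alignment.
Obox1: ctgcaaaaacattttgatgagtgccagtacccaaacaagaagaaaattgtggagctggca
Obox2: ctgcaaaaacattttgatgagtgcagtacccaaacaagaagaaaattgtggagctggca
Obox5: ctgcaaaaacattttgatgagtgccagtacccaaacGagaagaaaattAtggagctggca
Obox7: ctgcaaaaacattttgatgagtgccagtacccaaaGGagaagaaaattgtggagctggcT
Obox3: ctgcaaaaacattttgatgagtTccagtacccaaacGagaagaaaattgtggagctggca
Obox6: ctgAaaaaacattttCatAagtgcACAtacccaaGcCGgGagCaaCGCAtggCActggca
Obox8: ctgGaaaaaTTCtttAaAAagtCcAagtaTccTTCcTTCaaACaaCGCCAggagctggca

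The Obox1 stretch lies at chr7:15555612-15555671 on the plus strand, and that of Obox2 at chr7:15397295-15397353 on the plus strand. Those of Obox5 and Obox7 lie at chr7:15757986-15758045 and chr7:14664487-14664546, both on the plus strand. Those of Obox3, Obox6 and Obox8 lie on the minus strand, at chr7:15626829-15626888, chr7:15834413-15834472 and chr7:14332653-14332712. Obox3 and Obox5 differ from Obox1 at 2 of these positions each and Obox7 at 3, whereas Obox6 differs at 17 and Obox8 at 23. Obox2 differs from Obox1 at 0 positions but lacks 1 base, so its homeobox counts 179 bases against 180 in the other coding genes, and its annotated reading frame ends early, at 151 residues. Over the whole homeobox, Obox1 and Obox2 were 97.8% identical, Obox1 and Obox3 96.1%, Obox1 and Obox5 95.6% and Obox5 and Obox7 94.4%. Obox6 shared 71.1% with Obox1, and Obox8 shared 56.1%. In the homeobox, Obox1, Obox2, Obox3, Obox5 and Obox7 were thus close, and Obox6 and Obox8 stood apart. Over the whole coding sequence the order was another. Obox1 was 87.7% identical to Obox7, 73.0% to Obox2, 67.0% to Obox5, 57.3% to Obox3 and 46.3% to Obox6. Obox5 was 81.7% identical to Obox3, 72.0% to Obox7 and 68.1% to Obox6, so that over this length Obox6 was as close to Obox5 as Obox1 was. Obox2, with its shortened frame, shared 42.2% with Obox3, and Obox8 shared 49.6% with Obox1, its closest coding copy.

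**Figure D1:**
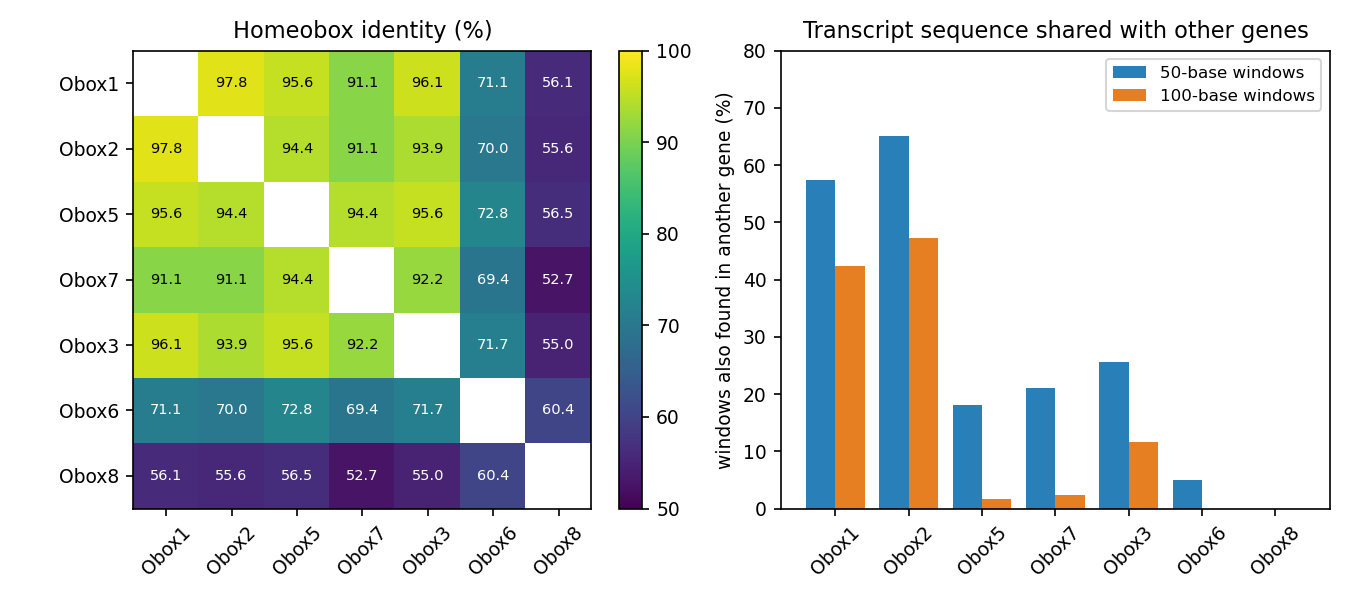
Left: percent of identical homeobox bases between each pair of the 7 coding Obox genes. Right: percent of a gene's transcript windows of 50 bases (blue) and of 100 bases (orange) that also occur in another gene's transcripts. Obox1 and Obox2 share the most, at 57.4% and 65.1% of their 50-base windows, and Obox6 shares 5.02% and Obox8 0.

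How far reads of 1 gene could have been counted for another was described by cutting each gene's transcripts into windows and searching them in the transcripts of all other genes, on either strand. Of the 50-base windows of Obox1, 57.4% were also found in another gene, and 56.4% were found in Obox2. For Obox2 this was 65.1%, with 62.7% found in Obox1. Obox3 shared 25.5% of its windows, most with the pseudogene Obox3-ps3 (18.3%). Obox5 shared 18.1%, of which Obox7 held the most (13.0% of all windows). Obox6 shared 5.02%, only with Obox6-ps1. With windows of 100 bases the shares were 42.3% for Obox1, 47.2% for Obox2, 11.6% for Obox3, 1.75% for Obox5 and 0% for Obox6. The values of Obox1 and Obox2 are therefore uncertain as values of single genes, while those of Obox5 and Obox6 rest largely on sequence of their own. The labels and processing notes do not state how the counting treated reads with several matches, and the embryos also carried DBA and CBA/H alleles, which the reference sequence does not hold.

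The 5 members lie on chromosome 7 of GRCm38 within 451 kb. Obox2 (ENSMUSG00000074369.12) spans chr7:15388721-15398545 and Obox1 (ENSMUSG00000054310.16) spans chr7:15388948-15556866, both on the plus strand. The long span of Obox1 comes from an annotated transcript that begins near the first exon of Obox2, and both genes share 59 exonic bases on the same strand, 3.11% of Obox1's exons. Obox3 (ENSMUSG00000066772.12) spans chr7:15479825-15639902 on the minus strand. Obox5 (ENSMUSG00000074366.9) spans chr7:15750131-15759800 on the plus strand, and Obox6 (ENSMUSG00000041583.8) spans chr7:15833241-15839678 on the minus strand. This stretch holds 15 Obox loci, the 5 members and 10 others, and 9 genes that are not Obox. Of these 9, 5 had a mean count above 0 and 0 reached 10. None had an adjusted p in the knockdown comparisons, so none could be called there. For LacZ control over non-injected, only Ranbp2-ps8, Gtpbp4-ps6 and Gtpbp4-ps7 had an adjusted p, and DESeq2 called 0.

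The promoters are shown because those of Obox1, Obox3, Obox5 and Obox7 resemble each other near the start of transcription. RefSeq promoter windows on GRCm38.p6, from 250 bases before to 50 after each start, were matched for 5 of the 7 coding genes, namely Obox1, Obox2, Obox3, Obox5 and Obox7. The letters TATATAAG, a TATA-box-like run, were searched on the gene's strand of these 5 windows and stood in 4 of them. Over all 32851 RefSeq windows, 0.703% held them on the gene's strand and 1.01% on either strand. The 4 windows are alike in sequence, so they are not 4 separate finds to set against that share. The run begins 19 bases before the RefSeq start in Obox1, 31 in Obox5, 5 in Obox7 and 30 in Obox3. Stretches of 30 bases around the run, with the run in capitals, show how close the copies are.
Obox1: tgcagagaTATATAAGggcaggtcttctga
Obox5: tgcagagaTATATAAGggcaggtcttctga
Obox7: tgcagagaTATATAAGggcaggtcttctga
Obox3: tggagagaTATATAAGggcaggtcttctga

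These stretches lie at chr7:15547230-15547259, chr7:15750331-15750360 and chr7:14659695-14659724 on the plus strand for Obox1, Obox5 and Obox7, and at chr7:15639786-15639815 on the minus strand for Obox3. The window of Obox2 holds no such run on the gene's strand. Over the whole window, Obox1 was 88.1% identical to Obox5 and 85.4% to Obox7, and Obox3 was 66.7% identical to Obox1. The window of Obox2 was less alike, 51.1% identical to Obox1, 46.2% to Obox3, 44.7% to Obox5 and 52.5% to Obox7. For knockdown over non-injected, Obox1, Obox5 and Obox7, which carry the run, had 1.02 ± 0.23, 0.83 ± 0.21 and 1.10 ± 0.27. Obox3, which carries it too, had -0.36 ± 0.26, with a 95% interval (-0.86 to 0.15) that holds 0. Obox2, without it, had 0.93 ± 0.21. Whether the run bears on these values was not tested.

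The members spanned a 23.2-fold range of level per kb in the authors' deposited tables. Obox5 stood highest, with a mean normalized count of 5881, or 2753 per kb of exon, and Obox6 followed with 3473, or 2584 per kb. Both lay at the 99.8th percentile per kb among 32861 genes with a mean count above 0 and an exon length. Obox1 had a mean count of 1065, or 561 per kb, and Obox2 had 328, or 199 per kb. Obox3 had 379, or 119 per kb, the lowest per kb of the 5. Obox5 alone made up 52.9% of the members' summed deposited count of 11125, Obox6 31.2%, Obox1 9.58%, Obox3 3.40% and Obox2 2.95%. Since no value per library was at hand, whether neighbours in this order, such as Obox5 and Obox6, differ beyond their spread was not tested.

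**Figure D2:**
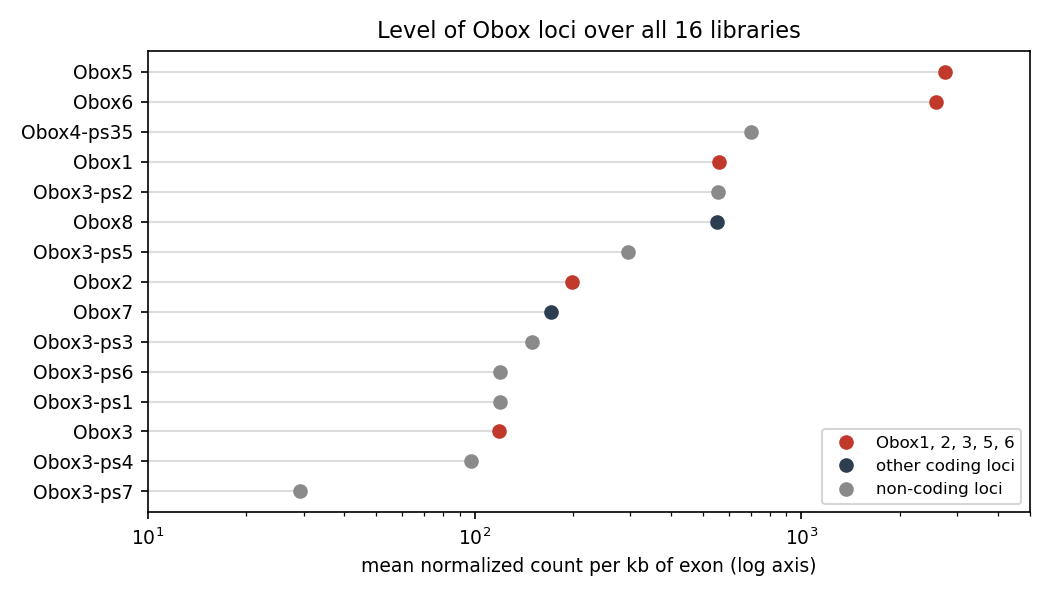
Mean normalized count per kb of exon (log axis) of the 15 Obox loci with a mean count of 10 or more, over all libraries, as 1 point a locus. The members are red, other coding loci dark and non-coding loci grey. Obox5 and Obox6, at 2753 and 2584 per kb, stand above all others, and Obox3 is at 119 per kb.

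The annotation names 55 Obox loci in all, and the members held 80.1% of their summed deposited count. Of the other 50, Obox7 and Obox8 are protein-coding and 48 are pseudogenes or other non-coding loci. Of those 48, 15 are listed at 0, 25 lay above 0 and under 10, and 8 reached 10. Obox3-ps1 to Obox3-ps6, 6 pseudogenes named for Obox3, had mean counts between 98.3 and 558. Together they summed to 1342, which is 3.54 times the count of Obox3 itself. Of 39 loci named for Obox4, 38 stayed under 10, the exception being Obox4-ps35, annotated as a long non-coding RNA, at 478. How reads with several matches were counted is not stated, and shared windows were computed for the coding genes only. Low counts of copied loci, and the 80.1% share, may therefore depend on that counting, which was not tested.

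In knockdown against LacZ control embryos, 3 members lay slightly above 0 and 2 below it, and none was called. In the authors' deposited table, Obox1 had a log2 fold change of 0.11 ± 0.22 (SE, 95% interval -0.31 to 0.54). For Obox2 the deposited value was 0.22 ± 0.20 (-0.17 to 0.60), and for Obox5 it was 0.15 ± 0.20 (-0.24 to 0.55). Each of these 3 intervals holds 0, so a difference between the injected groups was not detectable for Obox1, Obox2 or Obox5. Obox3 had -0.68 ± 0.25 (-1.16 to -0.20), with a DESeq2 p of 0.00914 that became 0.164 after adjustment. Obox6 had -0.51 ± 0.22 (-0.94 to -0.08), with a DESeq2 p of 0.0171 that became 0.215 after adjustment. These 2 estimates correspond to levels 1.61 and 1.42 times lower in knockdown than in LacZ control embryos, but neither passed the test over all genes. By the authors' DESeq2 test, 0 of 5 members were called, where 0.899% of the 15572 genes tested were, 0.366% higher and 0.533% lower. At an unadjusted DESeq2 p under 0.05, 2 members lay lower and 0 higher, where 4.11% of all genes with a p-value lay lower and 4.02% higher, 8.13% in all. Of the 7722 genes with a mean count of 100 or more, which include every member, 1067 lay lower and 435 higher at that p. The members' median log2 fold change was 0.11, beside 0.02 over all genes tested, and their mean weighted by deposited count was -0.08.

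In knockdown against non-injected embryos, Obox1, Obox2 and Obox5 rose, and Obox3 and Obox6 did not pass the test. In the authors' deposited table, Obox1 was higher in knockdown embryos by a log2 fold change of 1.02 ± 0.23 (SE), or 2.03-fold, with an adjusted p of 0.000532 in DESeq2. Obox2 was higher by 0.93 ± 0.21, or 1.91-fold (adjusted p = 0.000510 in DESeq2). Obox5, the most abundant member, was higher by 0.83 ± 0.21, or 1.78-fold (adjusted p = 0.00275 in DESeq2). All 3 are among those known as maternal mRNAs. Obox6 had -0.60 ± 0.23 (95% interval -1.06 to -0.15), with a deposited DESeq2 p of 0.00807 and an adjusted p of 0.0519, just outside the threshold. Adjusted over genes with a mean count of 100 or more, its DESeq2 p gave 0.0352, inside it. Obox3 had -0.36 ± 0.26 (-0.86 to 0.15, adjusted p = 0.447 in DESeq2). Thus 3 of 5 members were called higher and 0 lower, where 7.41% of the 14948 genes tested were called higher and 7.76% lower, 15.2% in all. Of their 50-base windows, Obox1 shares 56.4% with Obox2 and Obox2 62.7% with Obox1. The calls of these 2 genes may therefore not be separate observations. At an unadjusted DESeq2 p under 0.05, 3 members lay higher and 1 lower, where 7.98% of all genes lay higher and 6.83% lower, 14.8% in all. Of the 7722 genes with a mean count of 100 or more, 1215 lay higher and 1786 lower at that p. The members' median was 0.83, beside 0.05 over all genes tested, and their mean weighted by deposited count was 0.36, since the abundant Obox6 lay below 0.

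In LacZ control against non-injected embryos, which sets injection of a double-stranded RNA with no mouse target against no injection, Obox1 rose. It was higher in LacZ control embryos by a deposited log2 fold change of 0.91 ± 0.23 (SE), or 1.88-fold, with an adjusted p of 0.0166 in the authors' DESeq2 table. The deposited value of Obox2 was 0.72 ± 0.21 (95% interval 0.30 to 1.14), with a DESeq2 p of 0.000665 and an adjusted p of 0.0741. For Obox5 it was 0.68 ± 0.22 (0.25 to 1.10), with a DESeq2 p of 0.00180 and an adjusted p of 0.144. The estimates of Obox1, Obox2 and Obox5 thus lay close together, while Obox1 alone passed the threshold. Those of Obox1 and Obox2 may not be separate observations, given the sequence they share. Obox3 had 0.32 ± 0.26 (-0.19 to 0.84) and Obox6 -0.09 ± 0.24 (-0.56 to 0.37), with adjusted p-values of 0.995 and 0.998 in DESeq2. So 1 of 5 members was called higher and 0 lower, where 0.529% of the 29288 genes tested were called higher and 0.263% lower, 0.792% in all. An unadjusted DESeq2 p under 0.05 put 3 members higher and 0 lower, where it put 3.93% of all genes higher and 2.62% lower, 6.55% in all. Of the 7722 genes with a mean count of 100 or more, it put 667 higher and 465 lower. The members' median was 0.68, beside 0.00 over all genes tested. The comparisons of knockdown and of LacZ control with non-injected embryos share the 4 non-injected libraries, so a high value in both is not 2 separate observations.

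**Figure D3:**
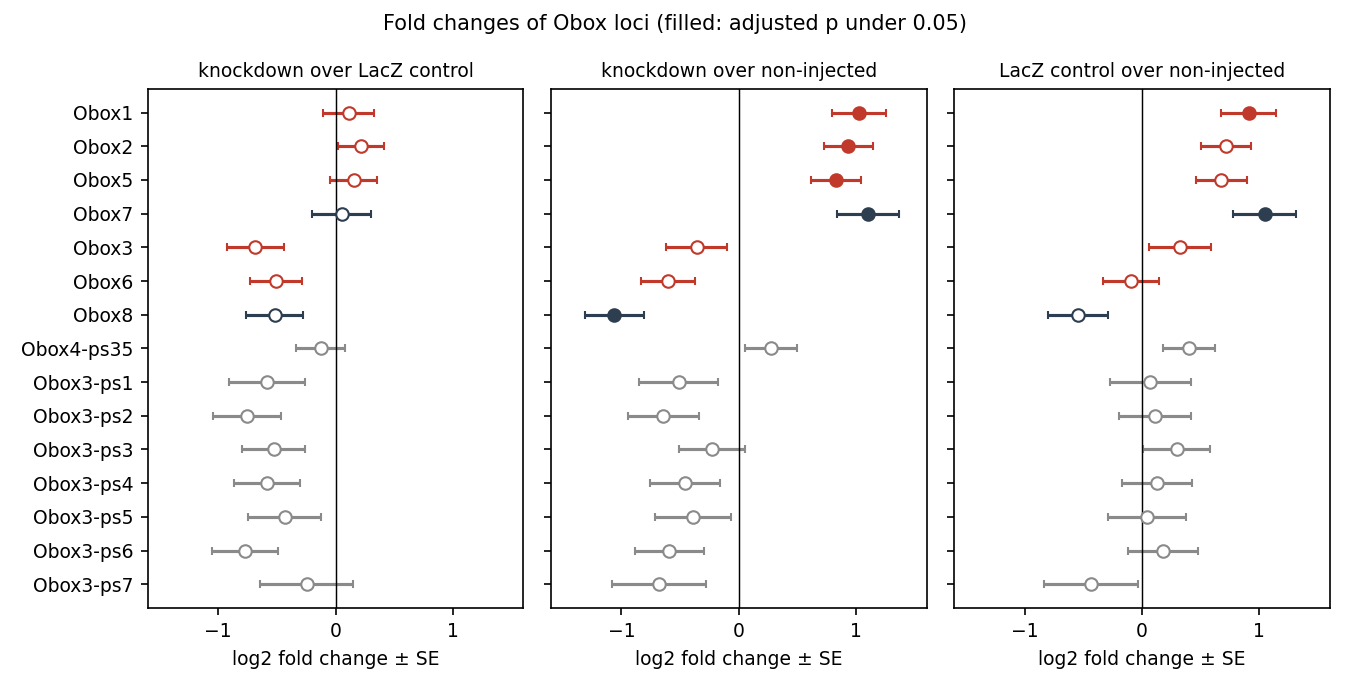
Log2 fold changes (points) with their standard errors (bars) of the 15 Obox loci with a mean count of 10 or more, in the authors' 3 deposited comparisons. Filled points have an adjusted p under 0.05; members are red, other coding loci dark and non-coding loci grey. Obox1, Obox2, Obox5 and Obox7 lie near 0 for knockdown over LacZ control and between 0.83 and 1.10 for knockdown over non-injected, where Obox8 lies at -1.06.

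Of the coding copies that are not members, Obox7 resembled Obox1, Obox2 and Obox5 in its values, and Obox8 did not. Obox7 (ENSMUSG00000055942.13, chr7:14659496-14665996, plus strand), closest to Obox1 over the coding sequence and with a deposited mean count of 274, had 0.05 ± 0.25 for knockdown over LacZ control (adjusted p = 0.920 in DESeq2). In the authors' deposited tables it was higher by 1.10 ± 0.27 in knockdown than in non-injected embryos (adjusted p = 0.00119 in DESeq2). It was also higher in LacZ control embryos, by 1.04 ± 0.27 over non-injected ones (adjusted p = 0.0183 in DESeq2). Obox8 (ENSMUSG00000099216.1, chr7:14331436-14333557, minus strand), the most divergent copy in the homeobox, had a deposited mean count of 644. It was lower by a log2 fold change of -1.06 ± 0.25 in knockdown than in non-injected embryos (adjusted p = 0.00161 in DESeq2). For knockdown over LacZ control its deposited value was -0.52 ± 0.24 (adjusted p = 0.296 in DESeq2). Between LacZ control and non-injected embryos it was -0.54 ± 0.26 (adjusted p = 0.578 in DESeq2). Among the 7 coding genes, then, those called higher in knockdown than in non-injected embryos were Obox1, Obox2, Obox5 and Obox7, and the gene called lower was Obox8.

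Of the pseudogenes named for Obox3, the 6 with mean counts between 98.3 and 558 had values near that of Obox3 between the injected groups. For knockdown over LacZ control, the deposited log2 fold changes of Obox3-ps1 to Obox3-ps6 ran from -0.77 to -0.43, with a median of -0.58, and all 6 lay below 0. By the authors' DESeq2 test 0 of 6 were called and 2 had an unadjusted p under 0.05, Obox3-ps6 (-0.77 ± 0.28, adjusted p = 0.168) and Obox3-ps2 (-0.75 ± 0.29, adjusted p = 0.249). Over all genes, 0.899% of those tested were called and 8.13% had an unadjusted DESeq2 p under 0.05. Against non-injected embryos the knockdown values ran from -0.64 to -0.23, and those of LacZ control from 0.05 to 0.30. In both, 0 were called and 0 had an unadjusted DESeq2 p under 0.05, where 14.8% and 6.55% of all genes had one. Obox3 shares sequence with these loci, so the 7 values are not 7 independent measurements. The scarcer Obox3-ps7, at a deposited mean count of 12.0, had -0.25 ± 0.40 for knockdown over LacZ control and -0.43 ± 0.40 for LacZ control over non-injected. Obox3-ps8, at 1.34, had 0.20 ± 0.30 and -0.32 ± 0.29 in these comparisons. Both thus lay below 0 for LacZ control over non-injected, where Obox3 had 0.32, but DESeq2 called neither there. In the knockdown comparisons Obox3-ps7 was not called either, and Obox3-ps8 had no adjusted p, so a call was not possible. Obox4-ps35 had a deposited -0.13 ± 0.21 for knockdown over LacZ control. Relative to non-injected embryos it had 0.27 ± 0.22 in knockdown and 0.40 ± 0.22 in LacZ control embryos, and DESeq2 called none of the 3 values.

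**Figure D4:**
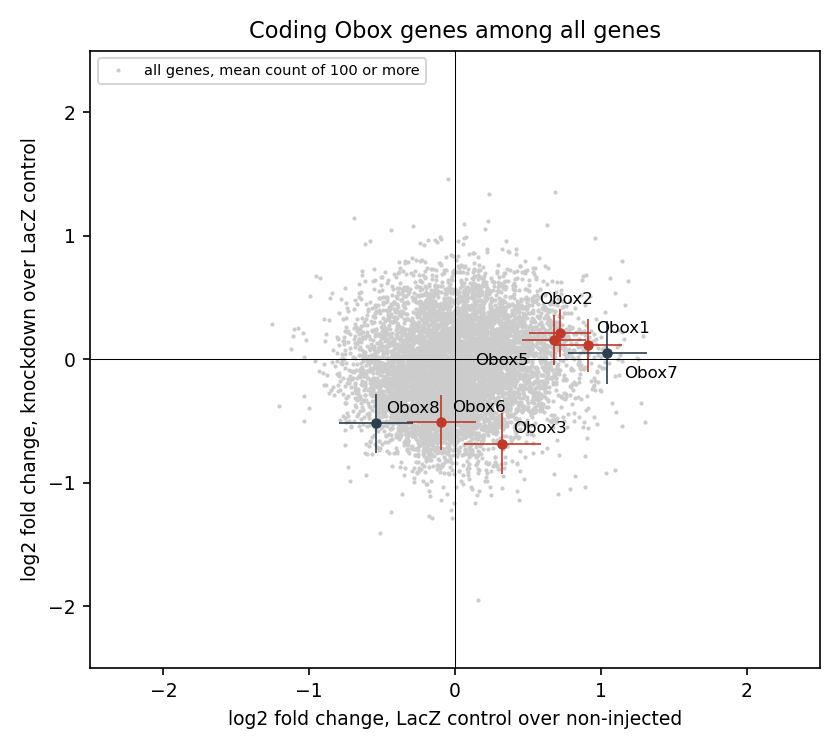
Log2 fold change of knockdown over LacZ control (vertical) against that of LacZ control over non-injected (horizontal), with standard errors for the 7 coding Obox genes. Grey points are the 7722 genes with a mean count of 100 or more, and both axes share the LacZ control libraries. Obox1, Obox2, Obox5 and Obox7 lie to the right near the horizontal line, and Obox3, Obox6 and Obox8 lie below it.

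The genes with the most similar fold changes were looked up among 7722 genes with a mean count of 100 or more, by the Euclidean distance over 2 deposited log2 fold changes, knockdown over LacZ control and LacZ control over non-injected. Nearest to Obox1 were Gm20362, Gng3, Nlrp4f, Arrdc3 and C9orf72, at distances from 0.0435 to 0.0548. Nearest to Obox2 were Dpy19l1, Rdh11, Cuta, Npm3 and Gnas, from 0.0234 to 0.0325, and nearest to Obox5 were Xdh, Entpd1, Ift43, Ccdc90b and D6Ertd527e, from 0.0233 to 0.0336. Within the family, Obox5 ranked 28 for Obox2, Obox2 ranked 34 for Obox5, and Obox7 ranked 51 for Obox1. The other ranks among these copies were lower in the order. For Obox1, Obox2 ranked 104 and Obox5 123. For Obox2, Obox1 ranked 229 and Obox7 638, and for Obox5, Obox1 ranked 330 and Obox7 883. Many genes outside the family were thus nearer. Nearest to Obox3 were Fam8a1, Dcaf10, Snhg1, Srsf9 and Rab39, from 0.0113 to 0.0366. Nearest to Obox6 were Tpr, Haus6, Chka, Rps27a and BC005537, from 0.00790 to 0.0131. Obox6 ranked 1052 for Obox3, so these 2 members were not close to each other by this measure, which takes no account of standard errors.

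**Figure D5:**
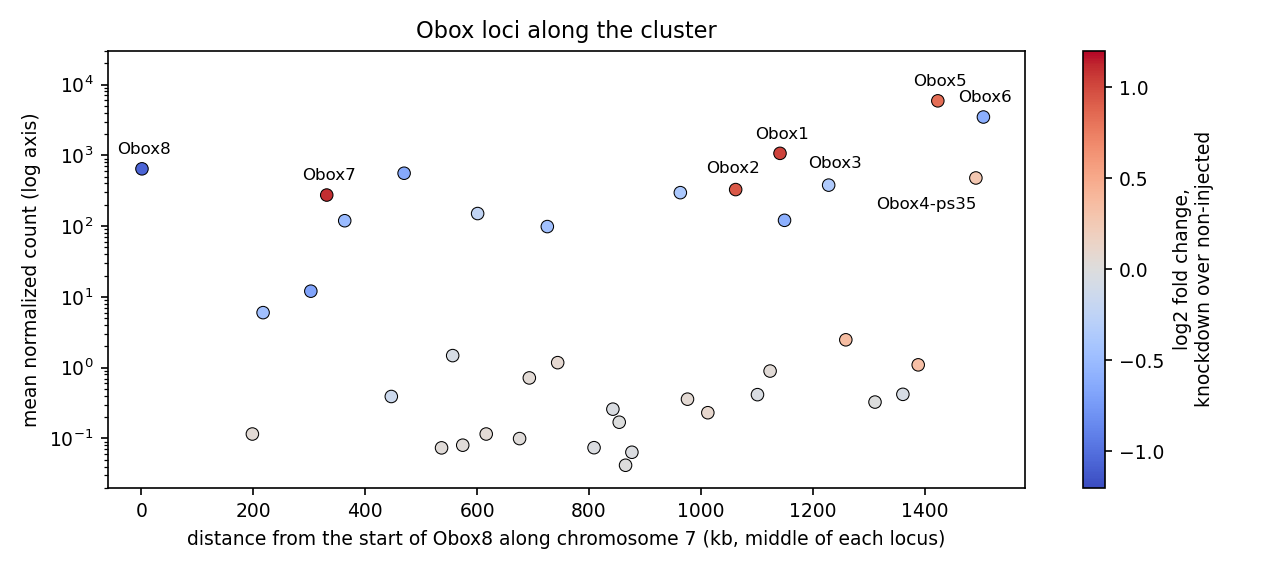
Mean normalized count (log axis) of the chromosome 7 Obox loci with a mean count above 0, against the distance of each locus's middle from the start of Obox8, in kb. Colour is the deposited log2 fold change of knockdown over non-injected, red for higher in knockdown. Obox1, Obox2 and Obox5 are red and stand between blue points such as Obox3 and Obox6, and Obox7, also red, lies nearest to pseudogenes shown in blue.

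Members of unlike values were neighbours in the cluster. Along the chromosome the order is Obox2, Obox1, Obox3, Obox5 and Obox6, by the middle of each locus, so that Obox3, with a deposited -0.36 for knockdown over non-injected, stands between Obox1 with 1.02 and Obox5 with 0.83. The whole cluster on chromosome 7 measures 1508 kb and holds 53 of the 55 loci. In the 2 knockdown comparisons, strand ran with the sign of the members' values. Obox1, Obox2 and Obox5 are on the plus strand, Obox3 and Obox6 on the minus strand. The same held for the other coding copies, with Obox7 on the plus strand and Obox8 on the minus strand. It did not hold for LacZ control over non-injected, where Obox3 had 0.32. Among non-coding loci, the 6 pseudogenes Obox3-ps1 to Obox3-ps6, on the minus strand, lay below 0 for knockdown over non-injected. There Obox4-ps35, on the minus strand, had 0.27, and Obox3-ps7, on the plus strand, had -0.68. This split was seen after the values were known, and it also follows homeobox similarity in part, so it is given as a description.

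Other homeobox genes of oocyte and early embryo, form a list of 33. For knockdown over non-injected, 18 of them had a deposited adjusted p, and 3 were called higher and 1 lower by DESeq2, with a median of 0.31. Over all genes tested, 7.41% were called higher and 7.76% lower there. Those higher were Pou5f1, a pluripotency factor stored in the oocyte (1.58 ± 0.27), Nobox, an oocyte homeobox factor (1.27 ± 0.28), and Lhx8, a factor needed for oocyte differentiation (0.77 ± 0.28). Crxos, a homeobox gene of the early embryo, was lower (-0.67 ± 0.23, adjusted p = 0.0351 in DESeq2). For knockdown over LacZ control 0 were called in DESeq2, where 0.899% of all genes tested were. Of 31 with a p-value, 6 had an unadjusted DESeq2 p under 0.05, where 8.13% of all genes did. The smallest p-values were those of Crxos (-0.67 ± 0.22, adjusted p = 0.0958) and Rhox9 (1.10 ± 0.39, adjusted p = 0.115). Between LacZ control and non-injected embryos 0 were called in DESeq2, where 0.792% of all genes tested were. An unadjusted DESeq2 p under 0.05 was found for 3, where 6.55% of all genes had one. They were led by Pou5f1 (0.90 ± 0.27, adjusted p = 0.0857) and Pou2f1 (0.61 ± 0.28, adjusted p = 0.551).

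Stored oocyte transcripts are the class to which the maternal Obox mRNAs belong. Of 40 such genes, 17 were called higher and 0 lower in knockdown than in non-injected embryos in the authors' deposited DESeq2 table, with a median log2 fold change of 0.56, where 7.41% of all genes tested were called higher and 7.76% lower. Those with the smallest p were Kpna7, an oocyte importin (1.15 ± 0.20), Zp2, a protein of the zona pellucida (0.85 ± 0.19), Npm2, a histone chaperone of the egg (0.97 ± 0.23), and Wee2, a kinase that holds meiotic arrest (0.68 ± 0.17). In LacZ control against non-injected embryos the median was 0.45. There 1 gene was called higher (Kpna7, 0.73 ± 0.21, adjusted p = 0.0445 in DESeq2), where 0.529% of all genes tested were. By an unadjusted DESeq2 p under 0.05, 18 lay higher, where 3.93% of all genes did. For knockdown over LacZ control, 0 of 40 were called in DESeq2, where 0.899% of all genes tested were, and the median was 0.17. An unadjusted DESeq2 p under 0.05 was found for 6 of 40, where 8.13% of all genes had one. Of the 7722 genes with a mean count of 100 or more, 435 lay higher and 1067 lower at that p. The smallest p-values were those of Khdc3 (0.71 ± 0.25, adjusted p = 0.134) and Ccnb3 (-0.95 ± 0.38, adjusted p = 0.174). Obox1, Obox2 and Obox5 lay above the list's median for knockdown over non-injected, at 1.02, 0.93 and 0.83. The 95% intervals of Obox2 (0.53 to 1.34) and Obox5 (0.41 to 1.25) held that median, and that of Obox1 (0.57 to 1.47) began just above it.

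Of 24 factors and targets of genome activation, 5 were called higher and 3 lower in knockdown than in non-injected embryos in the authors' deposited DESeq2 table, with a median of -0.24, where 7.41% of all genes tested were called higher and 7.76% lower. The smallest p-values were those of Kdm5b, an H3K4 demethylase (-0.85 ± 0.20), Tdpoz4 (1.02 ± 0.24), Tcstv1 (1.03 ± 0.26) and Zscan4f (1.21 ± 0.30), the last 3 being genes of multicopy families known from the 2-cell stage. For LacZ control over non-injected, Tcstv1 (1.05 ± 0.26, adjusted p = 0.00964 in DESeq2) and Tcstv3 (0.89 ± 0.25, adjusted p = 0.0445) were called higher and 0 lower, with a median of 0.05. Of all genes tested, 0.529% were called higher there and 0.263% lower. At an unadjusted DESeq2 p under 0.05, 5 lay higher and 2 lower, where 3.93% and 2.62% of all genes did. For knockdown over LacZ control 0 were called in DESeq2, where 0.899% of all genes tested were, and the median was -0.24. Of the 24, 4 had an unadjusted DESeq2 p under 0.05, where 8.13% of all genes did. Kdm5b (-0.61 ± 0.19, adjusted p = 0.0744) and Zscan4f (0.65 ± 0.29, adjusted p = 0.230) were among the 4. Obox3, the member known to be made by the embryo, had -0.36 for knockdown over non-injected and -0.68 for knockdown over LacZ control. Both lay below the list's medians, but its 95% intervals (-0.86 to 0.15 and -1.16 to -0.20) held them.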

How the data were processed

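Polyadenylated RNA was sequenced with Smart-seq2, per the labels' protocols. The submitters' processing notes name STAR 2.5.2b, SAMtools, HTSeq 0.9.1, DESeq2 1.18.1 and the build GRCm38.p5. RUVSeq and fold change shrinkage are known only from the names of the deposited tables. Per the file headers, these hold a mean normalized count (a signal in arbitrary units), a log2 fold change, its standard error and a Wald statistic (both of unit score here), and a p-value, raw and adjusted.

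The direction of fold changes was checked with Suv39h2. Benjamini-Hochberg adjustment, tested on simulated data, gave the deposited values back to within 1.84e-05. Intervals of 95% are the fold change ± the normal quantile times its SE. The deposited Wald statistic is not exactly the shrunken fold change divided by its SE. Obox3-ps2, for example, had -2.26 beside -0.75 ± 0.29 for knockdown over LacZ control. Intervals thus rest on the shrunken values and p-values on the Wald statistic, and the 2 can differ. Identifiers were matched to GENCODE vM21 (99.5% of 49585), and sequences aligned with Biopython 1.88. Members and lists were chosen with earlier results of these data known. Named were every member, the other Obox loci, and from each list up to 4 called genes with the smallest p, or the 2 smallest where none was called. Repeat tables were not used.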

Additional observations from a re-analysis of the deposited data

How the results depend on the processing

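No paired analysis was possible because the deposited tables hold no values of single libraries. For the same reason leaving out a replicate was not run, and depth cannot be judged. Of the 60 calls of single members under 4 other adjustments or thresholds, 58 kept their side of the threshold. Obox6 passed for knockdown over non-injected when p-values were adjusted over genes with a mean count of 100 or more (adjusted p = 0.0352 from DESeq2's p-values, 0.0352 to 0.105 over the settings), and Obox1 for LacZ control over non-injected (0.0166, and 0.0166 to 0.0370 over the settings) missed a threshold of 0.01, which left 0 members called there. The share of all genes called for knockdown over LacZ control was 0.363% with adjustment over every gene, 2.08% over genes of 100 or more and 0.0899% at 0.01. For knockdown over non-injected the same shares were 5.31%, 25.8% and 6.52%. For LacZ control over non-injected it was 0.418% over genes of 10 or more and 0.498% at 0.01. Fewer genes tested or a stricter threshold are the construction of these settings. Weighting members by mean count gave 0.36 for knockdown over non-injected in place of a median of 0.83, since Obox6 then counts for 31.2%, and -0.08 in place of 0.11 for knockdown over LacZ control. The settings for single members changed only the adjustment or threshold of the same p-values, so the direction of a called value could not reverse. Counting copies with 90% protein identity or more as 1 gave no value, because no pair of members reached it. Protein identity could not join Obox1 and Obox2, at 59.8% with the shortened frame of Obox2, though their homeoboxes were 97.8% identical. The setting therefore says nothing on whether the members' values are separate.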
